A study of Saccharomyces cerevisiae with 27 samples.

Results

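The genes described here are 44 budding yeast genes of amino acid synthesis and its control by Gcn4. They encode 4 enzymes of the histidine pathway, 9 of the aromatic pathway, 8 of the branched-chain pathway, 7 of the lysine pathway, 5 of the threonine pathway, 3 of serine synthesis and 3 of asparagine and glutamine synthesis, together with GCN4 and 4 of its regulators. They were chosen by name and not by a measured value, but with earlier results of these data known. All 44 were found among the 5434 genes of the table, each with 1 probe set, and no filter on low values was applied. GCN2 was the member with the lowest mean over the arrays, 8.93 log2 units.

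Gcn4 is a transcription factor that activates genes for the synthesis of most amino acids when yeast is starved of one of them, a response called general amino acid control. Its own synthesis is set mainly at translation: uncharged transfer RNA activates the kinase Gcn2 with the help of Gcn1 and Gcn20, Gcn2 phosphorylates initiation factor eIF2, and ribosomes then reach the GCN4 coding sequence more often. Gcn4 protein is short-lived, and its degradation depends on Pho85 with the cyclin Pcl5, whose gene is itself a Gcn4 target. The level of GCN4 mRNA alone is therefore not a measure of Gcn4 activity.

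Transcript levels in haploid W303 yeast were read on 27 Affymetrix Yeast Genome arrays, 1 sample to an array. The strains were wild type or carried scc2-4, a temperature-sensitive allele of the gene for the loader that places cohesin on chromosomes, and either had or lacked a recognition site at which the HO endonuclease makes a double-strand break. All cultures grew in YEP with raffinose, a rich medium, and all were held in G2/M, shifted to a higher temperature and given galactose, which turns on HO, before harvest. Since galactose went to all, the groups with and without a break are taken to be separate strains, whose other differences cannot be told apart from a response to the break. The labels place the break on chromosome VI in one field and on chr.iv in another, and this conflict was not settled. In experiment 1 each of the 4 groups had 3 arrays. In experiment 2 wild type had 4 arrays without a break and 3 with one, and scc2-4 had 4 and 4. The labels call the replicates biological and do not say how they were separated, so the p-values measure the spread between these arrays.

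The arrays did not all stand on one scale. The column medians were 10.19 to 10.22 log2 units in experiment 1, 9.76 to 9.79 for wild type in experiment 2 and 10.01 to 10.04 for scc2-4 in experiment 2, and sorted values differed by a mean of 0.00818 to 0.0302 within these 3 sets and by 0.147 to 0.425 between them. In experiment 2 the genotype cannot be told apart from the set, whereas each set held strains with and without a break. The arrays of a group were also not evenly spread, with a median absolute difference between replicates of 0.0357 to 0.122. One component held 71.0% of the deviations from the group means in experiment 1, 65.2% in the wild-type arrays of experiment 2 and 60.2% in the scc2-4 arrays of experiment 2, and it split the arrays of each set into 2 subsets. Replicate 1 of all 8 groups lay in the first subset and replicate 3 of all 8 in the second, while replicate 2 lay in the first in 5 groups and in the second in 3. In each set the first subset was named by the first array, replicate 1 of a group without a break, so the place of that array was fixed by the naming. In experiment 1 both groups without a break held 2 arrays of the first subset and 1 of the second, and both groups with a break held 1 and 2, so subset was uneven over the break. In experiment 2 the scc2-4 groups held 2 and 2 each, and the wild-type groups held 2 and 2 without a break and 1 and 2 with one. As checks, SCC2 mRNA was lower in scc2-4, at a log2 difference of −0.35 ± 0.05 (SE; adjusted p = 1.01e-05) without a break in experiment 1. The break difference of HO mRNA was 0.01 ± 0.03 (SE; adjusted p = 0.843) in wild type and −0.08 ± 0.03 (SE; adjusted p = 0.121) in scc2-4. Neither passed the test, and neither did GAL1, another gene that galactose turns on. The genes measured as checks were SCC2, HO, GAL1 and the marker genes HIS3, LEU2, URA3 and ADE2. Of these 7, 1 was higher and 1 (SCC2) lower in scc2-4 without a break in experiment 1, where 17.8% of all genes were higher and 16.7% lower.

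The break difference in scc2-4 asks how the mutant strain with a break differed from the one without, as the mean of the differences within experiment 1 and within experiment 2 (7 against 7 arrays). Of the 44 members 19 were lower in the strain with a break and 0 were higher at a limma adjusted p under 0.05. Of all 5434 genes 7.47% passed, with 3.4% lower and 4.07% higher. The median log2 difference was −0.11 over the members and 0.00 over all genes. The members past the threshold were all 4 histidine genes, 5 of 7 lysine genes, 4 of 8 branched-chain genes, 3 of 9 aromatic genes, 1 of 5 threonine genes, 1 of 3 asparagine and glutamine genes, 0 of 3 serine genes, and PCL5 among the 5 regulators. At an unadjusted limma p under 0.05, 28 members were lower and 0 higher, where 11.9% of all genes were lower and 12.1% higher, and the serine list had 2 lower and 0 higher.

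**Figure D1:**
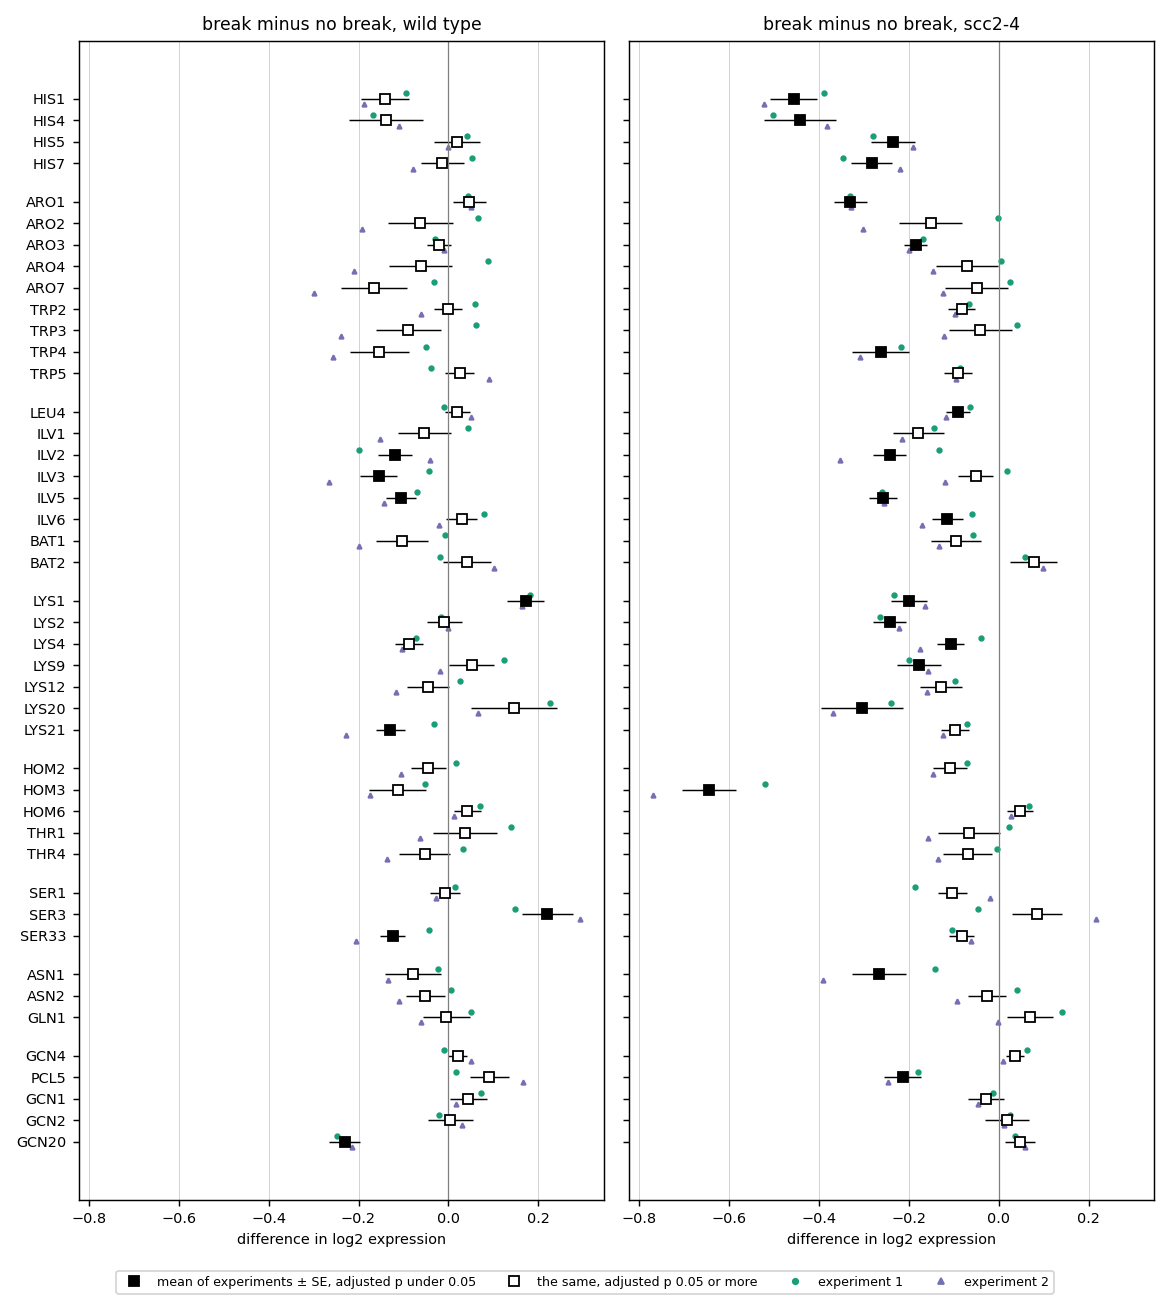
Difference in log2 expression between strains with and without a break for each of the 44 members (rows, grouped by pathway), in wild type (left) and scc2-4 (right). Squares are the mean of both experiments with its standard error, filled where the limma adjusted p was under 0.05, and the small circles and triangles are experiments 1 and 2. In scc2-4 the 19 filled squares all lie left of 0, with HOM3 farthest at −0.65, and in wild type 6 lie left and 2 right.

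The largest difference among the members was that of HOM3, the aspartate kinase that opens the pathway to threonine and methionine. In experiment 1 its log2 values in scc2-4 were 10.33, 10.32 and 10.48 without a break and 9.84, 9.80 and 9.92 with one. In experiment 2 they were 10.87, 10.66, 10.86 and 10.89 without and 9.93, 9.93, 10.18 and 10.17 with a break. Every array with a break lay below every array without one in both experiments, and the difference was −0.65 ± 0.06 (SE; adjusted p = 1.26e-07). The level without a break was 1.56 times that with one. The other 4 members of the pathway (HOM2, HOM6, THR1 and THR4) did not pass and lay between −0.11 and 0.05. They encode the later enzymes of the route from aspartate to threonine.

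All 4 histidine genes were lower. HIS1 encodes the ATP phosphoribosyltransferase of the committed first step, and its values in scc2-4 were 11.26, 11.20 and 11.31 without and 10.79, 10.90 and 10.92 with a break in experiment 1, and 12.05, 11.83, 12.04 and 11.95 against 11.34, 11.40, 11.51 and 11.51 in experiment 2. The groups did not overlap in either experiment, and HIS1 was lower, at a log2 difference of −0.46 ± 0.05 (SE; adjusted p = 2.76e-06). HIS4, a multifunctional enzyme of the same pathway, had 12.04, 12.00 and 11.90 without and 11.71, 11.35 and 11.37 with a break in experiment 1, and 11.66, 11.64, 11.64 and 11.66 against 11.32, 11.32, 11.20 and 11.23 in experiment 2. These groups did not overlap either. Within the first subset of arrays of experiment 1 HIS4 was 12.04 and 12.00 without and 11.71 with a break, and within the second it was 11.90 without and 11.35 and 11.37 with one. The difference of HIS4 was −0.44 ± 0.08 (SE; adjusted p = 0.00136), that of HIS5, the histidinol-phosphate aminotransferase, was −0.23 ± 0.05 (SE; adjusted p = 0.00458), and that of HIS7, the imidazole glycerol-phosphate synthase, was −0.28 ± 0.05 (SE; adjusted p = 0.000415).

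**Figure D2:**
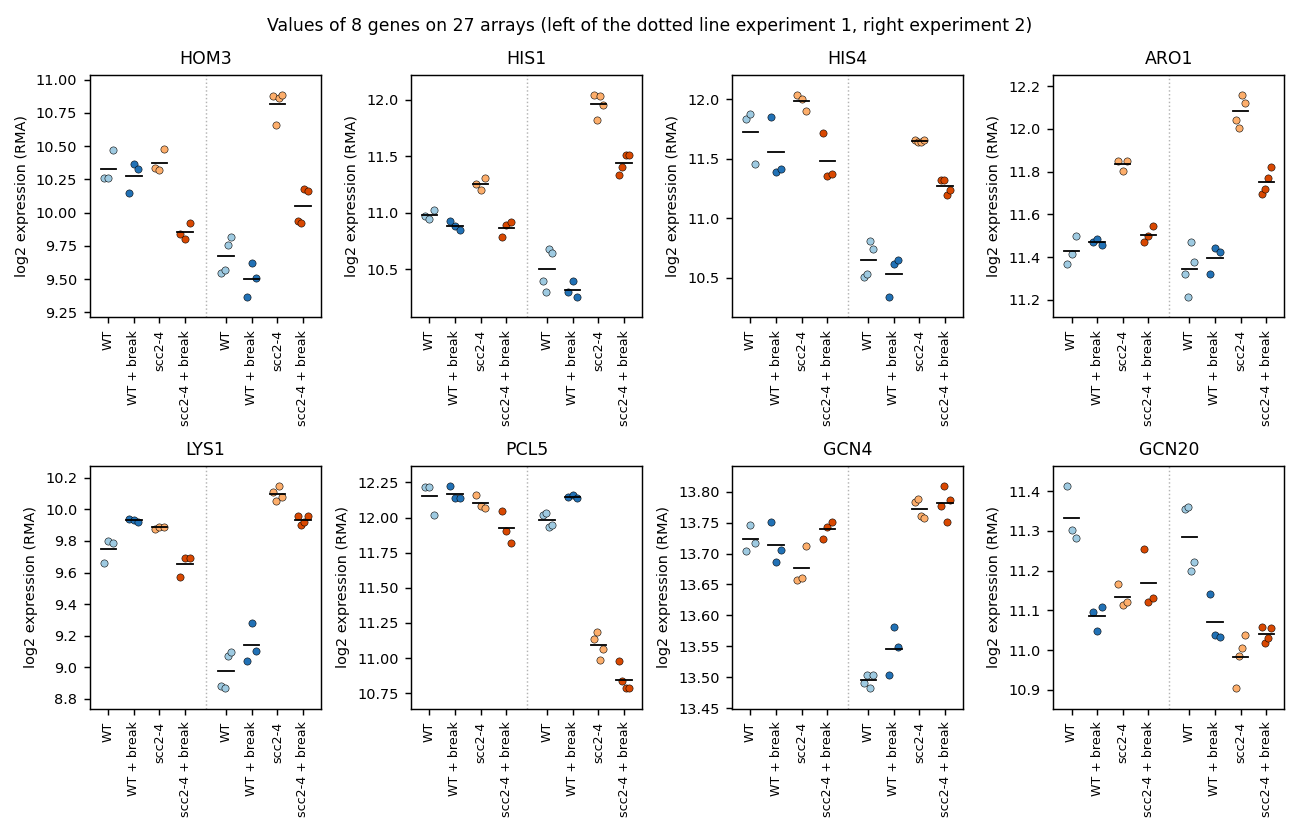
Log2 expression of 8 genes on all 27 arrays, with experiment 1 left and experiment 2 right of the dotted line in each panel. Each point is an array, the bar is the group mean, and each panel has its own vertical axis, so heights are read within a gene only. HOM3, HIS1, HIS4, ARO1, LYS1 and PCL5 lie lower in scc2-4 with a break than without one in both experiments, and GCN20 lies lower in wild type with a break.

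Of the aromatic genes ARO1, ARO3 and TRP4 were lower. ARO1 encodes the multifunctional enzyme that carries most steps of the shikimate pathway, which leads to chorismate. Its values in scc2-4 were 11.85, 11.80 and 11.85 without and 11.47, 11.50 and 11.54 with a break in experiment 1, and 12.04, 12.01, 12.16 and 12.12 against 11.70, 11.72, 11.77 and 11.82 in experiment 2. The groups lay apart in both experiments, with a difference of −0.33 ± 0.04 (SE; adjusted p = 1.39e-06). TRP4, the anthranilate phosphoribosyltransferase, had 9.27, 9.34 and 9.43 against 9.03, 9.14 and 9.22 in experiment 1 and 10.04, 9.86, 10.03 and 9.90 against 9.57, 9.64, 9.68 and 9.68 in experiment 2, and was lower, at −0.26 ± 0.06 (SE; adjusted p = 0.0121). ARO3 and ARO4 are the isoenzymes of the entry step, inhibited by phenylalanine and by tyrosine respectively. ARO3 was lower, at −0.18 ± 0.03 (SE; adjusted p = 5.79e-05) and ARO4 did not pass at −0.07 ± 0.07 (SE; adjusted p = 0.564). The other 5 aromatic genes lay between −0.15 for ARO2, the chorismate synthase, and −0.04 for TRP3, the indole-glycerol-phosphate synthase, with ARO7, TRP2 and TRP5 between them.

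In the branched-chain pathway ILV2 and ILV6, the catalytic and regulatory subunits of acetolactate synthase, ILV5, the reductoisomerase that follows it, and LEU4, the isopropylmalate synthase of the leucine branch, were lower. ILV5 had 12.95, 12.99 and 13.06 without and 12.66, 12.75 and 12.80 with a break in experiment 1, and 13.45, 13.31, 13.35 and 13.32 against 13.09, 13.13, 13.07 and 13.12 in experiment 2, so that the groups did not overlap. The difference of ILV5 was −0.26 ± 0.03 (SE; adjusted p = 8.85e-06). ILV2 had 12.12, 12.09 and 12.28 against 12.02, 11.97 and 12.11 in experiment 1, where 1 array with a break lay above 1 without, and 12.49, 12.39, 12.48 and 12.48 against 12.14, 12.07, 12.06 and 12.15 in experiment 2. Its difference was −0.24 ± 0.04 (SE; adjusted p = 0.000177), and those of ILV6 and LEU4 were smaller, −0.11 and −0.09. The aminotransferases BAT1, which is mitochondrial, and BAT2, which is cytosolic, did not pass, with −0.10 and 0.08, nor did ILV1, the threonine deaminase, at −0.18 and ILV3, the dihydroxyacid dehydratase, at −0.05.

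The lysine genes past the threshold were LYS1, LYS2, LYS4, LYS9 and LYS20. LYS2, the aminoadipate reductase, had 9.77, 9.73 and 9.78 without and 9.53, 9.44 and 9.52 with a break in experiment 1, and 9.90, 9.82, 9.91 and 9.85 against 9.61, 9.62, 9.68 and 9.68 in experiment 2. The groups did not overlap, and LYS2 was lower, at −0.24 ± 0.04 (SE; adjusted p = 0.000267). LYS20 and LYS21 are isoenzymes of the first step, homocitrate synthase. LYS20 had 11.99, 11.90 and 12.30 against 11.63, 11.94 and 11.90 in experiment 1, where the groups overlapped, and 12.27, 12.13, 12.14 and 12.14 against 11.79, 11.80, 11.75 and 11.86 in experiment 2, where they did not. LYS20 was lower, at −0.30 ± 0.09 (SE; adjusted p = 0.0442), and LYS21 did not pass at −0.10 ± 0.03 (SE; adjusted p = 0.055). The LYS20 call was lost in 16 of 27 fits that each left out 1 array, with a limma adjusted p of up to 0.122. LYS1 and LYS9, which encode the saccharopine dehydrogenases of the end of the pathway, were at −0.20 and −0.18, and LYS4, the homoaconitase, at −0.11. LYS12, the homoisocitrate dehydrogenase, did not pass at −0.13. ASN1, an asparagine synthetase, was lower, at −0.27 ± 0.06 (SE; adjusted p = 0.00833), with 11.70, 11.60 and 11.90 against 11.49, 11.64 and 11.65 in experiment 1, which overlapped, and 12.79, 12.63, 12.76 and 12.69 against 12.18, 12.40, 12.37 and 12.35 in experiment 2, which did not. Its paralogue ASN2 did not pass at −0.03 ± 0.04 (SE; adjusted p = 0.752), nor did GLN1, the glutamine synthetase, at 0.07. The serine genes SER1, the phosphoserine aminotransferase, SER3 and SER33 were at −0.10, 0.08 and −0.08 and did not pass.

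Taken singly, experiment 1 gave 11 members lower (1.55% of all genes were lower there) and experiment 2 gave 16 (3.72%). The 8 members lower in both were HIS1, HIS4, HIS7, ARO1, ARO3, ILV5, LYS2 and HOM3, against 0.478% of all genes. The experiments did not differ in this comparison for any member past the threshold (0 of 44, with 2 higher and 3 lower at an unadjusted limma p under 0.05, against 8.72% and 9.42% of all genes), where 0.0736% of all genes passed. In 13 of the 44 members every array with a break lay below every array without one in both experiments, against 1.82% of all genes, and in 0 members every array lay above, against 2.25%. Those 13 were HIS1, HIS4, HIS5, HIS7, ARO1, ARO3, TRP4, ILV5, LYS1, LYS2, LYS9, HOM3 and PCL5. With arrays that lay within 0.06 of each other averaged and counted as 1, 4 members stayed past the threshold (HIS1, ARO1, ILV5 and HOM3), all lower, where 0.202% of all genes were lower. With the subset of arrays as a block, which was read from these data and makes p-values too small, 34 members were lower and 1 higher, where 15% of all genes were lower and 15.3% higher.

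**Figure D3:**
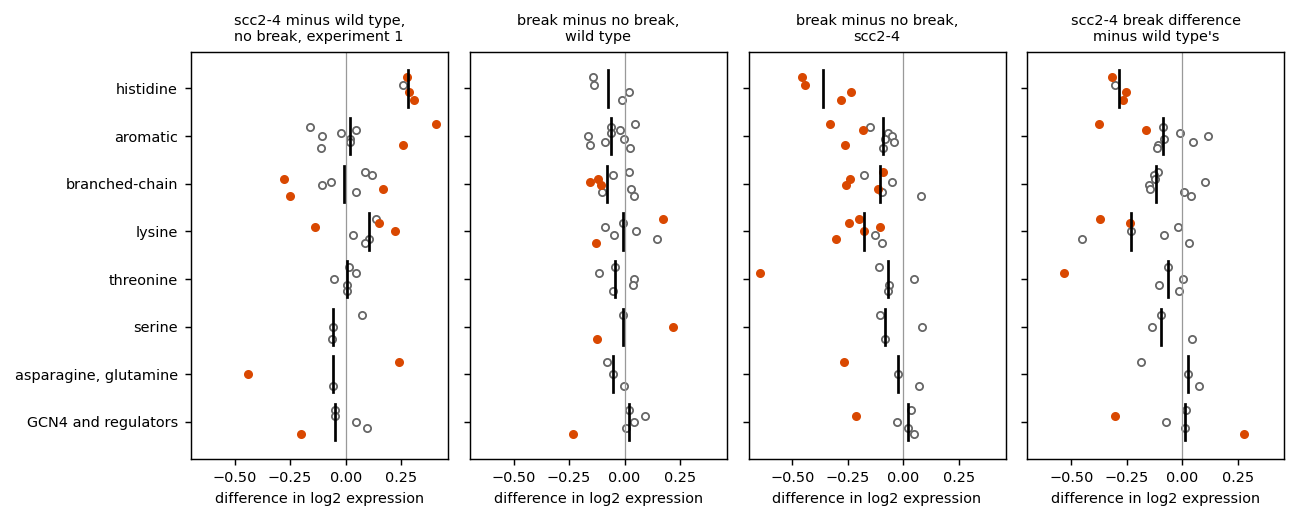
Difference in log2 expression of the 44 members by pathway (rows) in 4 comparisons (panels). Each point is a gene, filled where the limma adjusted p was under 0.05 and open otherwise, and the bar is the median of the list. In the panel of the break difference in scc2-4 the median of the histidine list lies at −0.36 and that of the lysine list at −0.18, while that of GCN4 and its regulators lies at 0.02.

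In wild type the break difference (6 against 7 arrays) passed for 8 members, 2 higher and 6 lower, where 8.34% of all genes were higher and 6.22% lower. The member median was −0.03. GCN20, the ATP-binding cassette protein that works with Gcn1 to activate Gcn2, had 11.41, 11.30 and 11.28 without and 11.10, 11.05 and 11.11 with a break in experiment 1, and 11.36, 11.36, 11.20 and 11.22 against 11.14, 11.04 and 11.03 in experiment 2. It was the 1 member whose arrays with a break all lay below those without in both experiments, a pattern of 2.08% of all genes (in 0 members every array lay above, against 3.55%). It was lower, at −0.23 ± 0.03 (SE; adjusted p = 6.06e-05). GCN20 (YFR009W) was also the 1 member on chromosome VI, where one of the label fields places the break, while another names chr.iv. A link between position and the difference was not tested.

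LYS1, whose enzyme forms lysine itself, was higher in wild type with a break by 0.17 ± 0.04 (SE; adjusted p = 0.00648). Its values were 9.66, 9.80 and 9.79 without and 9.94, 9.93 and 9.92 with a break in experiment 1, where the groups lay apart, and 8.88, 8.87, 9.07 and 9.09 against 9.04, 9.28 and 9.10 in experiment 2, where they overlapped. SER3 and SER33, the isoenzymes of phosphoglycerate dehydrogenase at the entry to serine synthesis, passed in opposite directions. SER3 was higher by 0.22 ± 0.06 (SE; adjusted p = 0.0109), with 11.33, 11.29 and 11.40 against 11.36, 11.51 and 11.59 and, in experiment 2, 10.58, 10.50, 10.63 and 10.78 against 10.94, 10.79 and 11.01. SER33 was lower, at −0.12 ± 0.03 (SE; adjusted p = 0.00446), with 10.50, 10.57 and 10.60 against 10.52, 10.51 and 10.52 and, in experiment 2, 9.67, 9.79, 9.75 and 9.83 against 9.56, 9.52 and 9.58. The groups of both genes overlapped in experiment 1 and lay apart in experiment 2. ILV2, ILV3, ILV5 and LYS21 were lower, at −0.12, −0.16, −0.11 and −0.13. The difference between the experiments passed for 0 of 44 members, with 1 higher and 5 lower at an unadjusted limma p under 0.05 (6.46% and 6.83% of all genes), where 0.092% of all genes passed. With close arrays averaged 1 member, GCN20, stayed lower, where 1.49% of all genes were lower. With the arrays of experiment 1 fitted alone 0 of 44 passed, and 2 were higher and 2 lower at an unadjusted limma p under 0.05, against 5.34% and 5.32% of all genes.

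The difference between the break differences, scc2-4 minus wild type, passed for 10 members, 9 below 0 and 1 above, where 1.99% of all genes were below and 1.93% above. The 9 below 0 were HIS1, HIS5, HIS7, ARO1, ARO3, LYS1, LYS2, HOM3 and PCL5, and GCN20 was the one above. This comparison has the scc2-4 arrays in common with the break difference in scc2-4, and the wild-type arrays with that in wild type, so the values stand side by side and are no separate support. For HOM3 the break difference was −0.11 in wild type and −0.65 in scc2-4, and the difference between the genotypes was −0.53 ± 0.09 (SE; adjusted p = 0.000697). In wild type HOM3 had 10.26, 10.26 and 10.47 without and 10.14, 10.36 and 10.33 with a break in experiment 1, and 9.55, 9.57, 9.75 and 9.81 against 9.36, 9.62 and 9.50 in experiment 2, and the groups overlapped in both.

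ARO1 had 11.37, 11.42 and 11.50 without and 11.47, 11.48 and 11.46 with a break in wild type in experiment 1, and 11.32, 11.21, 11.47 and 11.38 against 11.32, 11.44 and 11.42 in experiment 2. These groups overlapped, the difference in wild type was 0.05, and that between the genotypes was −0.38 ± 0.05 (SE; adjusted p = 8.77e-05). LYS1 passed in opposite directions in the strains, with 0.17 in wild type and −0.20 in scc2-4. Its values in scc2-4 were 9.88, 9.89 and 9.89 against 9.57, 9.69 and 9.69 in experiment 1 and 10.11, 10.05, 10.15 and 10.08 against 9.96, 9.90, 9.92 and 9.96 in experiment 2, without overlap, and the difference between the genotypes was −0.37 ± 0.06 (SE; adjusted p = 0.000348). For HIS1 it was −0.31 ± 0.07 (SE; adjusted p = 0.0183), for HIS7 −0.27 ± 0.07 (SE; adjusted p = 0.0223), for LYS2 −0.23 ± 0.05 (SE; adjusted p = 0.0165) and for ARO3 −0.16 ± 0.04 (SE; adjusted p = 0.0126). HIS5 passed at −0.25 ± 0.07 (SE; adjusted p = 0.0434), a call that was lost in 18 of 27 fits that each left out 1 array, with an adjusted p of up to 0.0874. LYS20, at −0.45 ± 0.13 (SE; adjusted p = 0.0569), did not pass. ARO1 and LYS1 passed the threshold below 0 in both experiments taken singly, a pattern of 0.129% of all genes. With close arrays averaged 1 member, ARO1, stayed past the threshold, where 0.184% of all genes were below 0.

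Of the regulators GCN4 had group means of 13.50 to 13.78 log2 units and did not pass in the break comparisons, in the difference between them or in the genotype comparisons of experiment 1. Its values in scc2-4 were 13.66, 13.66 and 13.71 without and 13.72, 13.74 and 13.75 with a break in experiment 1, and 13.78, 13.79, 13.76 and 13.76 against 13.78, 13.81, 13.75 and 13.79 in experiment 2. These groups did not overlap in experiment 1, where those with a break lay higher, and overlapped in experiment 2. With array weights GCN4 passed as higher in scc2-4 with a break, where 1153 of all 5434 genes were higher. Under the same weights it passed as lower in scc2-4 than in wild type without a break in experiment 1, where 1454 of all genes were lower. The break difference of GCN4 was 0.04 ± 0.02 (SE; adjusted p = 0.271) in scc2-4 and 0.02 ± 0.02 (SE; adjusted p = 0.545) in wild type. GCN2, the eIF2 kinase, differed by 0.02 ± 0.05 (SE; adjusted p = 0.861) and 0.00 ± 0.05 (SE; adjusted p = 0.966), and GCN1, its activator, by −0.03 ± 0.04 (SE; adjusted p = 0.706) and 0.04 ± 0.04 (SE; adjusted p = 0.52). Neither passed.

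PCL5, the cyclin that directs Gcn4 to degradation, was lower in scc2-4 with a break, at −0.21 ± 0.04 (SE; adjusted p = 0.00265). Its values were 12.16, 12.08 and 12.07 without and 12.05, 11.91 and 11.82 with a break in experiment 1, and 11.14, 11.18, 10.99 and 11.06 against 10.98, 10.84, 10.78 and 10.79 in experiment 2, and the groups did not overlap. In wild type PCL5 had 12.22, 12.22 and 12.02 against 12.22, 12.14 and 12.14 in experiment 1 and 12.02, 12.03, 11.94 and 11.95 against 12.15, 12.16 and 12.14 in experiment 2, and the difference of 0.09 ± 0.04 (SE; adjusted p = 0.166) did not pass. The groups overlapped in experiment 1 and lay apart in experiment 2, with the arrays with a break higher. With the subset block, which makes p-values too small, PCL5 passed as higher in wild type, where 18.6% of all genes were higher. The break differences of PCL5 in the genotypes had a difference of −0.31 ± 0.06 (SE; adjusted p = 0.00467). GCN20 in scc2-4 had 11.17, 11.11 and 11.12 against 11.26, 11.12 and 11.13 in experiment 1 and 10.90, 10.99, 11.01 and 11.04 against 11.06, 11.02, 11.03 and 11.06 in experiment 2, with overlap in both. Its difference of 0.05 ± 0.03 (SE; adjusted p = 0.412) did not pass, and the difference between the genotypes was 0.28 ± 0.05 (SE; adjusted p = 0.00104).

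Without a break, scc2-4 against wild type in experiment 1 (3 against 3 arrays) asks how the mutant differed in strains that carry no break site. It shares the scc2-4 arrays without a break with the break difference in scc2-4, so values of both stand side by side only. Of the 44 members 9 were higher and 5 lower, where 17.8% of all genes were higher and 16.7% lower, and the member median was 0.03. In all 31.8% of the members passed, against 34.5% of all genes. The 9 higher were HIS1, HIS5, HIS7, ARO1, TRP4, ILV6, LYS2, LYS9 and ASN1, and the 5 lower were ILV2, BAT2, LYS4, ASN2 and GCN20. ARO1 was higher by 0.41 ± 0.05 (SE; adjusted p = 5.88e-06), with 11.37, 11.42 and 11.50 in wild type and 11.85, 11.80 and 11.85 in scc2-4. HIS7 was higher by 0.31 ± 0.07 (SE; adjusted p = 0.00153), with 9.33, 9.38 and 9.33 against 9.68, 9.63 and 9.65. For ARO1 and HIS7 every scc2-4 array lay above every wild-type array.

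The asparagine synthetase genes passed in opposite directions. ASN2 was lower in scc2-4, at −0.44 ± 0.06 (SE; adjusted p = 1.83e-05), with 12.63, 12.61 and 12.77 in wild type and 12.19, 12.22 and 12.28 in scc2-4, without overlap. ASN1 was higher by 0.24 ± 0.09 (SE; adjusted p = 0.0434), with 11.37, 11.37 and 11.74 against 11.70, 11.60 and 11.90, where the groups overlapped. The ASN1 call was lost in 5 of 27 fits that each left out 1 array, with a limma adjusted p of up to 0.225. It was also lost with centred arrays and with experiment 1 fitted alone. The subunits of acetolactate synthase also passed in opposite directions, with ILV2 lower, at −0.28 ± 0.06 (SE; adjusted p = 0.000472) and ILV6 higher by 0.17 ± 0.05 (SE; adjusted p = 0.0154). BAT2 was lower, at −0.25 ± 0.08 (SE; adjusted p = 0.0169) and BAT1 did not pass at 0.05 ± 0.08 (SE; adjusted p = 0.698). Of all members, 10 had every scc2-4 array above every wild-type array, a pattern of 25.2% of all genes, and 7 had every array below, a pattern of 21.2%. With close arrays averaged 2 members (HIS7 and ARO1) stayed higher and 2 (ILV2 and ASN2) lower, where 9.07% of all genes were higher and 8.52% lower. Without wild-type replicate 1, wild-type replicate 2 or scc2-4 replicate 3 the count of members higher was 4, 5 and 4.

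**Figure D4:**
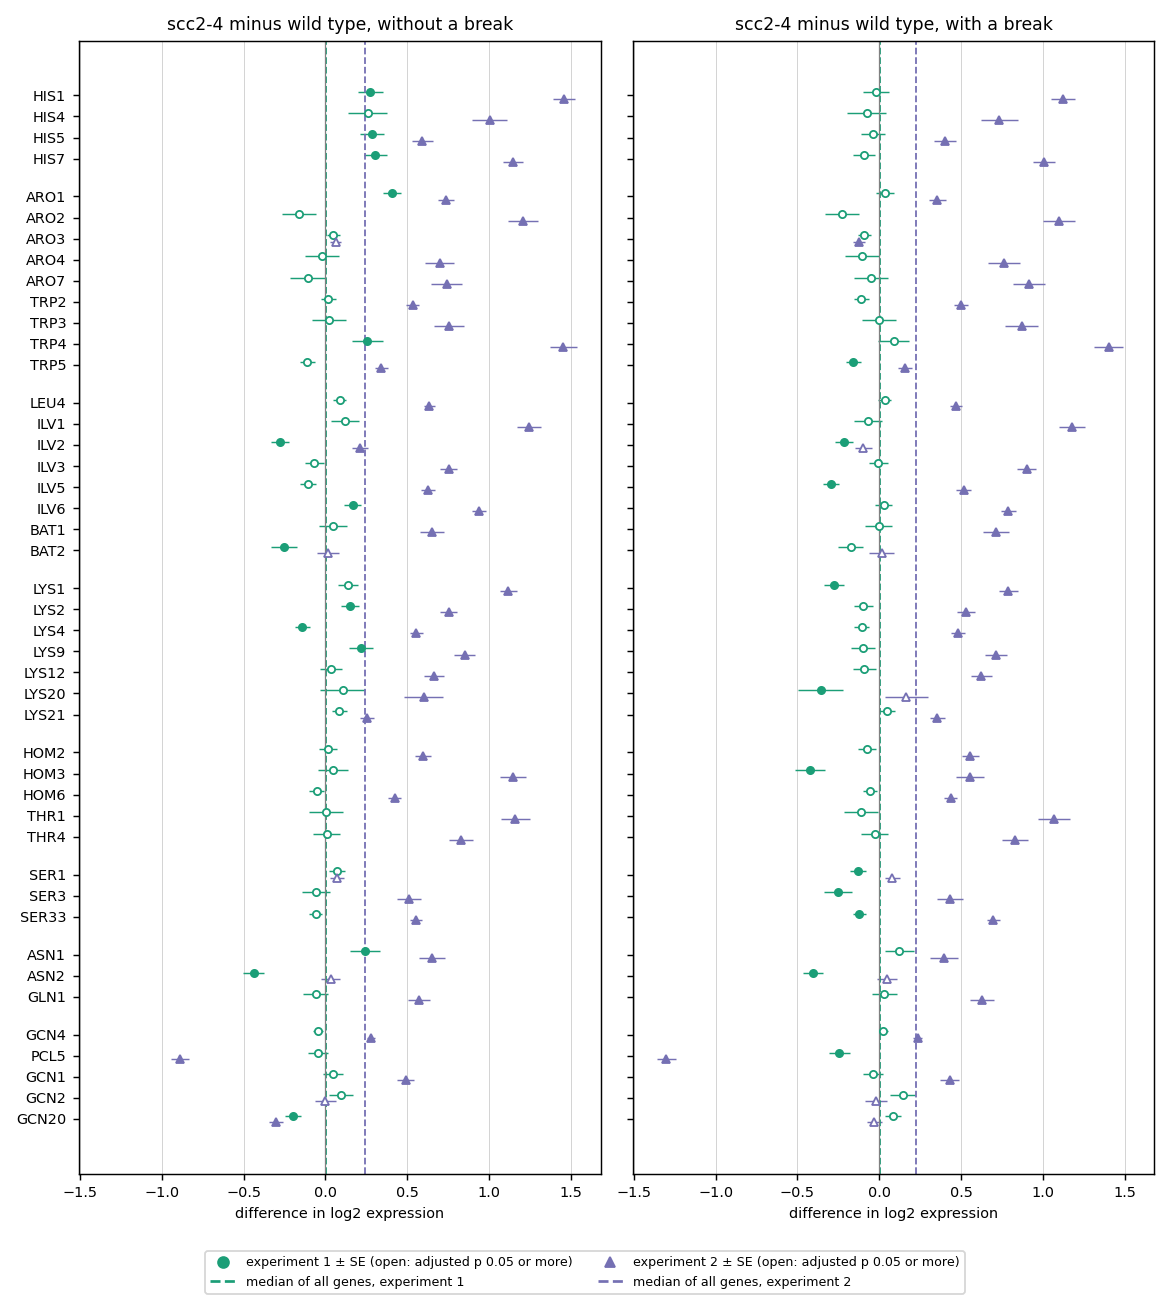
Difference in log2 expression between scc2-4 and wild type for each of the 44 members, without a break (left) and with one (right). Circles are experiment 1 and triangles experiment 2, with standard errors, open where the limma adjusted p was 0.05 or more, and dashed lines are the medians of all genes. The triangles lie mostly right of the circles, and in experiment 2 the median of all genes was itself above 0, at 0.24 and 0.23.

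With a break in experiment 1, 0 members were higher and 11 lower in scc2-4, where 19.2% of all genes were higher and 17% lower. The arrays of this comparison also enter the break differences in scc2-4 and in wild type, so the values stand side by side and are no separate support. The member median was −0.08 and that of all genes 0.01. At an unadjusted limma p under 0.05, 0 members were higher and 16 lower, where 23.6% of all genes were higher and 21.2% lower. The 11 lower were TRP5, ILV2, ILV5, LYS1, LYS20, HOM3, SER1, SER3, SER33, ASN2 and PCL5, which take in all 3 serine genes. Each serine call was lost in 4 of 27 fits that each left out 1 array. The limma adjusted p there rose to 0.206 for SER1, 0.108 for SER3 and 0.0686 for SER33. SER1 was also lost with quantile normalization and with experiment 1 fitted alone. The LYS20 call was lost in 15 of the 27 fits. HOM3 was lower, at −0.42 ± 0.09 (SE; adjusted p = 0.000915), with 10.14, 10.36 and 10.33 in wild type and 9.84, 9.80 and 9.92 in scc2-4, without overlap. SER3 had 11.36, 11.51 and 11.59 against 11.24, 11.23 and 11.23 and was lower, at −0.25 ± 0.08 (SE; adjusted p = 0.0217). ASN2 was lower, at −0.40 ± 0.06 (SE; adjusted p = 3.88e-05), ILV5 at −0.30 ± 0.05 (SE; adjusted p = 4.89e-05), LYS1 at −0.28 ± 0.06 (SE; adjusted p = 0.000976) and PCL5 at −0.24 ± 0.06 (SE; adjusted p = 0.00423). In 15 members every scc2-4 array lay below every wild-type array, a pattern of 19.6% of all genes, and in 2 (LYS21 and GCN20) every array lay above, a pattern of 22.1%. With close arrays averaged 5 stayed lower (ILV2, ILV5, LYS1, HOM3 and ASN2), where 8.17% of all genes were lower, and without scc2-4 replicate 2 the count was 7.

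In experiment 2, where the genotype cannot be told apart from the set of arrays, more members passed. Without a break 37 members were higher and 2 (PCL5 and GCN20) lower in scc2-4, where 60.6% of all genes were higher and 23.3% lower. With a break 35 were higher and 2 (ARO3 and PCL5) lower, where 58.6% were higher and 23.4% lower. The member median was 0.63 without and 0.52 with a break, against 0.24 and 0.23 over all genes. After each array was centred on its median the counts were 34 higher and 7 lower without a break (member median 0.39) and 31 and 8 with one (0.28), where 38.7% of all genes were higher and 40.7% lower without a break, and 37.4% and 41% with one. Every scc2-4 array lay above every wild-type array for 37 members without a break, a pattern of 58% of all genes, and for 36 with one, a pattern of 58.1%. HIS1 was higher by 1.46 ± 0.07 (SE; adjusted p = 6.43e-15) without a break, with 10.39, 10.30, 10.68 and 10.64 in wild type and 12.05, 11.83, 12.04 and 11.95 in scc2-4, and TRP4 by 1.46 ± 0.08 (SE; adjusted p = 1.94e-13), with 8.42, 8.33, 8.58 and 8.67 against 10.04, 9.86, 10.03 and 9.90. PCL5 was lower, with 12.02, 12.03, 11.94 and 11.95 in wild type and 11.14, 11.18, 10.99 and 11.06 in scc2-4, at −0.89 ± 0.05 (SE; adjusted p = 7.43e-13) without a break and at −1.30 ± 0.06 (SE; adjusted p = 5.4e-15) with one.

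The 9 members higher in experiment 1 without a break were also higher in experiment 2. So were 799 of the 969 genes of the whole table that were higher in experiment 1, or 14.7% of all genes. GCN20 was lower in both, a pattern of 4.73% of all genes. In opposite directions, ILV2 and LYS4 were lower in experiment 1 and higher in experiment 2 without a break, a pattern of 8.76% of all genes, and TRP5, ILV5, LYS1, HOM3, SER3 and SER33 did so with a break, a pattern of 6.59%. HOM3 with a break had a difference of −0.42 in experiment 1 and of 0.55 in experiment 2, where the values were 9.36, 9.62 and 9.50 in wild type and 9.93, 9.93, 10.18 and 10.17 in scc2-4. Tested directly, the genotype difference was higher in experiment 2 than in experiment 1 for 39 members and lower for 1 (PCL5) without a break, where 56.4% of all genes were higher and 19.3% lower, and for 37 and 1 with a break, where 54.7% were higher and 17.6% lower. With centred arrays these counts were 33 and 5, beside 35.7% and 32.3% of all genes, and 30 and 4, beside 31.6% and 33.5%. ASN2, whose difference was −0.44 in experiment 1, did not pass in experiment 2 (0.03), with 12.40, 12.33, 12.51 and 12.45 against 12.45, 12.40, 12.51 and 12.47.

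Of 22 further genes of these pathways that are not members, 20 were measured, and HIS6 and TRP1 were not analysed here. In scc2-4 with a break 2 were lower and 0 higher, where 3.4% of all genes were lower and 4.07% higher. LEU9, a paralogue of LEU4, was lower, at −0.39 ± 0.08 (SE; adjusted p = 0.00508), and HIS3, the imidazole glycerol-phosphate dehydratase, at −0.27 ± 0.06 (SE; adjusted p = 0.00833). HIS3 had 9.83, 9.90 and 9.75 without and 9.68, 9.45 and 9.37 with a break in experiment 1, without overlap, and 9.11, 8.95, 9.17 and 9.17 against 8.98, 8.79, 8.92 and 8.87 in experiment 2, with overlap. HIS3 is also an auxotrophic marker of W303, and the labels give no marker genotype. The marker genes LEU2, URA3 and ADE2 did not pass in this comparison, with −0.03, −0.04 and −0.27, and the part of marker genotype in the members' differences was not tested.

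In wild type with a break 1 of the 20 was lower, where 6.22% of all genes were, HIS2, the histidinol-phosphatase, at −0.53 ± 0.04 (SE; adjusted p = 7.63e-09). Its values were 10.25, 10.21 and 10.25 without and 9.79, 9.94 and 10.02 with a break in experiment 1, and 9.79, 9.86, 9.91 and 9.97 against 9.09, 9.09 and 9.22 in experiment 2, without overlap in either. In scc2-4 the difference of HIS2 was −0.07 ± 0.04 (SE; adjusted p = 0.279) and did not pass, and the difference between the genotypes was 0.46 ± 0.06 (SE; adjusted p = 4.91e-05). HIS2 (YFR025C) lies on chromosome VI next to ULI1, with 16 protein-coding genes between it and GCN20 in the R64 gene table. These 2 genes were lower with a break in wild type and did not pass in scc2-4, and they were the only listed pathway genes, members or not, on that chromosome. The labels do not settle on which chromosome the break lay, and a part of position in these differences was not tested.

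Between genotypes in experiment 1, 2 of the 20 were higher without a break, LYS5 at 0.32 and SHM2 at 0.29, and 4 were lower, led by PRO2 at −0.33 and ARO9 at −0.31, where 17.8% of all genes were higher and 16.7% lower. LYS5 encodes the transferase that activates the Lys2 enzyme, SHM2 the cytosolic serine hydroxymethyltransferase, PRO2 an enzyme of proline synthesis and ARO9 an aromatic aminotransferase. With a break 1 was higher, HIS2 at 0.40, and 6 were lower, led by LEU9 at −0.52 and ARO9 at −0.48, where 19.2% of all genes were higher and 17% lower. Of 10 further genes of general control, 0 were higher and 5 lower without a break (GCD1, GCD6, GCD11, SUI2 and YIH1), and 0 higher and 3 lower with one (GCD1, GCD2 and GCD11), beside the same shares of all genes (17.8% and 16.7%, then 19.2% and 17%). GCD1, a subunit of the exchange factor of eIF2, was lower, at −0.30 ± 0.06 (SE; adjusted p = 0.000887) without a break. In wild type PHO85, the kinase partner of Pcl5, was higher with a break at 0.15 ± 0.03 (SE; adjusted p = 0.00117) and GCD6 lower at −0.10 ± 0.03 (SE; adjusted p = 0.0181). In scc2-4 GCD2 was lower with a break at −0.14 ± 0.03 (SE; adjusted p = 0.00927).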

How the data were processed

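Total RNA was measured on 27 arrays. The authors' deposited table gives log2 values from RMA run in R 2.9.2, as the submitters' processing notes name them. RMA subtracts background, brings arrays of 1 run to a common distribution and summarises the probes of each set. The arrays of each run, its version, the centring of the columns and a genome build are not given in the sources used here, so no coordinates are printed. The number of arrays limits the precision.

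The platform annotation gave 1 gene symbol to 5468 of 5684 probe sets, several to 0 and none to 216, and 12 symbols were updated from the R64 gene table. Where a gene had more than 1 probe set (34 genes), the brightest on average was used, leaving 5434 genes. One mean was fitted for each of the 8 groups over all 27 arrays in limma 3.58.1 (R 4.3.3) using lmFit and eBayes. P-values were adjusted by Benjamini-Hochberg over the 5434 genes at a threshold of 0.05, and differences are log2 differences with the standard error of this fit. The procedure was tested on simulated data in which the noise was independent between arrays. That test therefore does not cover the component shared by arrays in the real data. Genotype differences were taken from experiment 1, and break differences are the mean of both experiments.

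The members, lists and tests were chosen with earlier results of these data known. By rule, any member could be named, with values on every array for regulators, paralogue pairs and up to 2 members per pathway with the largest change past the threshold, and up to 4 non-members past the threshold per comparison. Values of HIS2 and HIS3 on every array, and the full names of the general control genes, were added after their values were seen. Same-numbered arrays of different groups correlated in their deviations at −0.67 to 0.77 in experiment 1 (18 pairs) and −0.49 to 0.65 in experiment 2 (21 pairs). As 14 and 11 of these pairs correlated over 0.1, and not all, the numbers were not taken to pair arrays, although replicates 1 and 3 follow the subsets. Alternatives were centring, quantile normalization, an additive experiment term, the set as a block, each experiment alone, array weights, leaving out genes of lowest mean, the mean of probe sets, a replicate block and each array left out. The averaging of close arrays (17 units remained) and the subset block were chosen after seeing the data.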

Additional observations from a re-analysis of the deposited data

Results flagged for a closer look

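Within the groups of 4 arrays, 132 combinations of member and group were examined for an array far from the other 3, and chance alone flags about 1 in 20 of them. There were 4 such arrays. SER1 was 11.48 log2 units on replicate 1 of wild type without a break in experiment 2, against 11.59 to 11.61 on the others. In scc2-4 without a break in experiment 2, ILV2 was 12.39 on replicate 2 against 12.48 to 12.49, HOM3 was 10.66 on replicate 2 against 10.86 to 10.89, and LYS20 was 12.27 on replicate 1 against 12.13 to 12.14. For HOM3 the low array still lay above all arrays with a break.

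The break difference differed between the genotypes for 10 members by the limma test of the difference itself. The break difference in scc2-4 minus that in wild type was −0.31 for HIS1, −0.25 for HIS5, −0.27 for HIS7, −0.38 for ARO1, −0.16 for ARO3, −0.37 for LYS1, −0.23 for LYS2, −0.53 for HOM3, −0.31 for PCL5 and 0.28 for GCN20.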

How the results depend on the processing

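Counts of members are given as higher and lower. The limits are the few arrays, the closeness of arrays within groups and the different scales of the wild-type and scc2-4 arrays in experiment 2. In the genotype difference without a break in experiment 1 (9 and 5, with 1877 genes called), the counts were 36 and 2 (3594 genes) with an additive experiment term, 37 and 2 (4558) in experiment 2, 16 and 9 (2959) with array weights, 2 and 2 (956) with close arrays averaged and 13 and 8 (2824) with the subset block. Centring gave 6 and 7, and fitting experiment 1 alone 6 and 5. In the genotype difference with a break (0 and 11; 1970 genes) they were 28 and 3 (3356), 35 and 2 (4456), 2 and 20 (3074), 0 and 5 (913) and 2 and 18 (2900) under the same 5 settings. In the break difference in wild type (2 and 6; 791 genes) they were 0 and 1 (103) with the additive term, 2 and 7 (958) in experiment 2, 2 and 8 (1271) with weights, 0 and 1 (213) with close arrays averaged, 3 and 21 (2189) with the subset block, 0 and 0 (22) with the arrays of experiment 1 only and 0 and 1 (64) in the experiment 1 contrast. In the break difference in scc2-4 (0 and 19; 406 genes) these 7 settings gave 0 and 3 (33), 0 and 16 (409), 3 and 26 (2112), 0 and 4 (30), 1 and 34 (1642), 0 and 6 (36) and 0 and 11 (198). In the difference of the break differences (1 and 9; 213 genes) they gave 1 and 1 (19), 1 and 6 (127), 2 and 14 (716), 0 and 1 (24), 2 and 16 (1018), 0 and 3 (11) and 0 and 2 (24), and the set block left 139 genes. The settings that average close arrays or use experiment 1 only hold fewer arrays, and otherwise the cause was not tested. No break difference of a called member, nor the difference between them, changed sign under these settings.

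Among members called, values that turned sign were all in the genotype differences. Those of GCN2 and GCN4, near 0 and not called in the main fit of 8 group means, also changed sign in break comparisons under some settings. GCN2 went from −0.033 to 0.037 in wild type and −0.019 to 0.049 in scc2-4 when single arrays were left out. In the genotype differences GCN4 and GCN1 did not pass in the main fit, but both passed as higher with the additive term and in experiment 2. With the additive term the values that turned sign were, without a break, ILV2 0.0027, LYS4 0.26 and GCN4 0.14, and with a break TRP5 0.013, ILV5 0.14, LYS1 0.29, HOM3 0.092, SER3 0.12, SER33 0.31 and GCN1 0.21. In experiment 2 they were, without a break, ILV2 0.21, BAT2 0.017, LYS4 0.56, ASN2 0.032 and GCN4 0.28, and with a break TRP5 0.16, ILV5 0.52, LYS1 0.79, LYS20 0.17, HOM3 0.55, SER1 0.079, SER3 0.43, SER33 0.70, ASN2 0.049 and GCN1 0.43.

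With the replicate block, which rests on numbers that met the rule for pairing in neither experiment (14 of 18 and 11 of 21 same-numbered pairs correlated over 0.1), the counts were 10 and 7, 0 and 14, 2 and 7, 0 and 26 (657 genes) and 1 and 14 (378 genes) in the order above. Leaving out each of the 27 arrays in turn gave 4 to 9 higher and 3 to 5 lower without a break, 0 to 1 and 7 to 12 with one, 2 to 2 and 4 to 7 in wild type, 0 to 0 and 14 to 22 in scc2-4, and 1 to 1 and 8 to 11 for the difference between them. Of the members called, 7 of 14, 6 of 11, 6 of 8, 14 of 19 and 9 of 10 stayed past the threshold in every one of these fits. HIS5 was the call lost in the last of these. In the scc2-4 break difference the calls lost in some fit were LEU4, ILV6, LYS4, LYS9 and LYS20, and in that of wild type ILV2 and ILV5. Between genotypes in experiment 1 they were TRP4, ILV6, BAT2, LYS2, LYS4, LYS9 and ASN1 without a break. With a break they were TRP5, LYS20, SER1, SER3 and SER33. All genes called in the scc2-4 break difference numbered 264 without scc2-4 replicate 1 of experiment 1 (no break), 264 without replicate 2 and 253 without replicate 3 of the group with a break. For the difference between them they numbered 137 without the first of these arrays, 123 without the last and 140 without wild-type replicate 1 of experiment 2 (no break). The counts also rose. Without scc2-4 replicate 1 of experiment 1 (with a break), 551 genes were called in the scc2-4 break difference and 288 for the difference between the break differences.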
